A study of Homo sapiens with 6 samples.

Results

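The metallothioneins and their zinc response partners were examined as a group of 8 genes, chosen by symbol among the 58174 rows of the deposited table. They comprised 6 metallothioneins (MT1E, MT1F, MT1G, MT1M, MT1X and MT2A), the zinc-sensing transcription factor MTF1 and the zinc exporter SLC30A1. Each symbol matched exactly 1 row. The rule uses no measured value, but the members were chosen with earlier results of these data known. Messenger RNA had been sequenced from A549 cells, an established line derived from a human lung adenocarcinoma. Parental A549 cells (Ctrl, 3 libraries) were compared with A549 cells lacking the MIR21 gene (MIR21-KO, 3 libraries). All cells were grown in DMEM with FBS, without added metal or hormone stated in the labels, and were harvested 48 h after seeding. For the knockout, cells had received Cas9 with a pair of guide RNAs and single cells had been sorted to found clones, whereas Ctrl cells had not been cloned. How many clones the 3 MIR21-KO libraries came from is not given, so differences between clones and the deletion itself cannot be told apart.

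The libraries held 10631667 to 14345209 reads assigned to genes, recovered from the deposited values. Levels are given as FPKM, fragments scaled to gene length and sequencing depth. At a length of 1 kb, 0.0731 to 0.0930 FPKM stood for 1 read, depending on the library. The targeted MIR21 gene was listed at 0 reads in all 6 libraries, which checks nothing, since polyA libraries do not capture short miRNA precursors. VMP1, the gene that hosts it, was called higher in MIR21-KO cells (log2 fold change 0.92, FDR = 0.000473, limma). Among epithelial markers, the keratins KRT8, KRT18 and KRT19 had 82.9 to 688 FPKM over all libraries. The other epithelial markers were far lower, with CDH1 at 2.72 to 8.79, MUC1 at 1.23 to 2.46 and EPCAM at 0.389 to 1.65 FPKM. Of the alveolar type II markers, SFTPA1 had no read, SFTPB and SFTPC had at most 4 reads per library, and NAPSA stood at 0.510 to 0.779 FPKM. A further marker of this kind, NKX2-1, could not be matched by its symbol and was not examined. CD3E, PTPRC, PECAM1 and VWF had at most 3 reads in a library, whereas CD14 stood at 3.19 to 5.10 FPKM. Of the epithelial markers, the cadherin CDH1 was called lower in MIR21-KO cells (log2 fold change -1.48, FDR = 0.000175, limma). KRT18 (-0.69, FDR = 0.0153) and MUC1 (0.66, FDR = 0.0210) did not overlap between the groups, in opposite directions, and were not called by limma, nor were KRT8 (-0.23), KRT19 (0.29) and EPCAM (-0.68). The collagen COL3A1 had 0.0577 to 0.191 FPKM in Ctrl and 0.540 to 0.634 FPKM in MIR21-KO libraries. Their part in the results below was not tested.

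Metallothioneins are small, cysteine-rich proteins that bind zinc, copper and cadmium. When free zinc rises, MTF1 binds short metal response elements in DNA and activates metallothionein genes together with SLC30A1 (ZnT1), which exports zinc through the plasma membrane. Most human metallothionein genes, including the 6 examined here, lie in a cluster on chromosome 16, and several of them also respond to glucocorticoids. In bulk RNA a change in the share of cells and a change in RNA per cell cannot be told apart.

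In the GENCODE 29 annotation (GRCh38), MT2A (ENSG00000125148) occupies bases 56608199 to 56609497 of chromosome 16. It is followed by MT1E (56625475 to 56627112), MT1M (56632233 to 56633986), MT1F (56657694 to 56660698), MT1G (56666731 to 56668065) and MT1X (56682424 to 56684196). All are on the plus strand except MT1G, which is on the minus strand. MTF1 (37809567 to 37859620) and SLC30A1 (211571568 to 211578742) are both on the minus strand of chromosome 1.

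Because MTF1 acts through metal response elements, the 250 bases before the RefSeq start of each gene (GRCh38.p14) were searched for the core in the forms TGCACNC and TGCGCNC, on both strands. Entries existed for 4 of the 8 genes, namely MT2A, MT1X, SLC30A1 and MTF1, and not for MT1E, MT1F, MT1G and MT1M. MT2A held 7 matches, 5 on the sense and 2 on the antisense strand. At least 7 matches were present in 9 of the 27305 promoters in the table (0.0330%). MT1X held 4 matches, a number reached by 0.366% of promoters, and SLC30A1 held 1, where 24.7% of promoters held 1 or more. The MTF1 window held none. Among other metallothioneins with an entry, MT1H, which had no read in any library, held 8 matches, more than MT2A, and MT1B and MT4 held 3 each, with at most 1 read per library for MT1B and none for MT4. No 2 matches overlapped in these windows.

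The MT2A matches are shown with up to 10 bases on each side, because GENCODE places this window in the first exon of an MT2A transcript. They are shown since MT2A was the metallothionein that passed the test below. Capitals mark the core, which reads on the antisense strand where it appears as GTGTGCA, and each line is numbered by its first core base, counted back from the RefSeq start. All are on the plus strand of chromosome 16.

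MT2A at -246, chr16:56608334-56608354: ccgcTGCACCCagccccttcc
MT2A at -168, chr16:56608406-56608432: cccgcggcccGTGTGCAgagccgggtg
MT2A at -153, chr16:56608421-56608447: cagagccgggTGCGCCCggcccagtgc
MT2A at -139, chr16:56608435-56608461: cccggcccagTGCGCGCggccgggtgt
MT2A at -88, chr16:56608486-56608512: agcgcggggcGTGTGCAggcagcgccc
MT2A at -54, chr16:56608520-56608546: gcggggctttTGCACTCgtcccggctc
MT2A at -8, chr16:56608566-56608583: cttgccgcgcTGCACTCc

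For comparison, the stretch before MT1X that precedes its GENCODE start and the last 100 bases before the RefSeq start of SLC30A1 are given. The cores are again in capitals. The MT1X cores begin at -150, -122, -78 and -53, and the SLC30A1 core begins at -49, counted from the RefSeq starts. For SLC30A1 the RefSeq start lies upstream of the GENCODE start at base 211578742.

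MT1X, chr16:56682220-56682423, plus strand: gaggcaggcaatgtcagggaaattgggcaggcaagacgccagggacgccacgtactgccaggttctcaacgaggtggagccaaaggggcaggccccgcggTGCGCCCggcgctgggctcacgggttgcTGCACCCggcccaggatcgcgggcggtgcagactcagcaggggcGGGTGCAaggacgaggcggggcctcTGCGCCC
SLC30A1, chr1:211579162-211579261, minus strand: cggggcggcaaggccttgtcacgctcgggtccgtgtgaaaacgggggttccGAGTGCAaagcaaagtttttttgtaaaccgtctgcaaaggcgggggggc

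**Figure D1:**
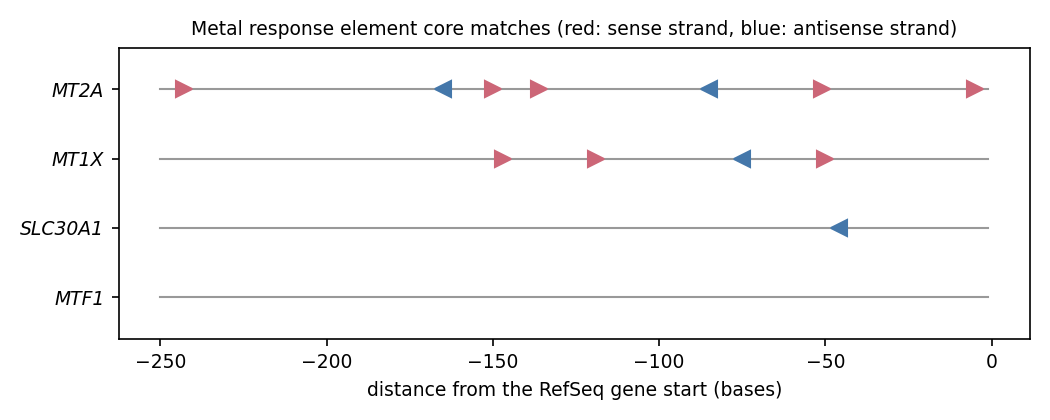
Metal response element core matches in the 250 bases before the RefSeq start of MT2A, MT1X, SLC30A1 and MTF1, with distance from the start in bases on the x axis. Arrowheads give the strand of each match. MT2A holds 7, MT1X 4, SLC30A1 1 and MTF1 0.

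To see whether metallothionein mRNAs differ upon MIR21 deletion, the 16006 genes that reached 0.5 FPKM on average were tested on log2(FPKM + 0.1) with limma. P-values were two-sided and adjusted over all of these genes by the Benjamini-Hochberg method (FDR), with calls at an FDR under 0.01. Fold changes are MIR21-KO over Ctrl on this log2 scale, which understates changes of genes near 0. Of the 8 genes, 5 passed the filter on low values (MT2A, MT1X, MT1F, MTF1 and SLC30A1), and 1 of these, MT2A, was called. Among all genes tested, 16.0% were called, and 7.66% were called higher. Groups did not overlap for 4 of the 5 genes, as was the case for 48.1% of all genes tested.

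MT2A, the most abundant metallothionein mRNA in these cells, was higher in MIR21-KO cells. Its level was 400.5, 413 and 421 FPKM in Ctrl replicates 1 to 3, and 903, 760.05 and 605 FPKM in MIR21-KO replicates 1 to 3. Every MIR21-KO library thus lay above every Ctrl library, and the MIR21-KO libraries were spread far more widely. The means were 411.5 ± 10.2 and 756 ± 149 FPKM (SD, n = 3 each). The log2 fold change was 0.86 ± 0.15 (SE), with a 95% confidence interval of 0.50 to 1.22, a 1.81-fold difference (FDR = 0.00687, limma). These values rest on 5775 to 15980 reads per library, so counting error is small beside the spread between libraries.

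The call for MT2A depended on the libraries used. It was lost without Ctrl replicate 1 (FDR = 0.0335), Ctrl replicate 2 (FDR = 0.0302), Ctrl replicate 3 (FDR = 0.0305) or MIR21-KO replicate 2 (FDR = 0.0357), by limma in each case. Where it was lost, the log2 fold change was 0.84 to 0.87. Calls over all genes also fell there, to between 784 and 933, against 2568 with all 6 libraries. The MT2A call was kept without MIR21-KO replicate 1 (FDR = 0.00662) and also without replicate 3 of that group (FDR = 0.000837). The log2 fold change of MT2A stayed between 0.72 and 1.01 in all fits that leave out 1 library. With all 6 libraries, the call was also lost without a filter on low values (FDR = 0.0124) and with limma without trend and robust fitting (FDR = 0.0132).

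MT1X, a second metal-inducible metallothionein, had 9.70, 10.3 and 9.77 FPKM in the Ctrl libraries. In the MIR21-KO libraries it had 16.4, 13.9 and 11.4 FPKM. The groups did not overlap, but the lowest MIR21-KO value was close to the highest Ctrl value. The log2 fold change was 0.47 ± 0.13 (SE) and did not pass the threshold (FDR = 0.0381, limma). Without MIR21-KO replicate 3 it was 0.60 and passed (FDR = 0.00445, limma), in a fit where 3418 of 15927 genes were called. MT1X passed in no other fit that leaves out 1 library (FDRs of 0.0553 to 0.114, limma). The reads per library numbered 196 to 396.

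MT1F was the least abundant of the 3 metallothioneins that could be tested. It was measured at 1.996, 2.07 and 1.70 FPKM in Ctrl and at 4.04, 3.89 and 2.49 FPKM in MIR21-KO libraries. Again no values overlapped, and MIR21-KO replicate 3 lay nearest to Ctrl. Its log2 fold change was 0.80 ± 0.21 (SE, FDR = 0.0267, limma), short of the threshold, and it rested on only 42 to 104 reads per library. Without MIR21-KO replicate 3 the log2 fold change was 1.01 and passed (FDR = 0.00273, limma). MT1F passed in no other fit that leaves out 1 library (FDRs of 0.0607 to 0.101, limma).

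At an FDR under 0.05 in place of 0.01, MT2A, MT1F and MT1X would all have been called, where 32.0% of all genes tested were. The median log2 fold change of the 5 tested genes was 0.47, against -0.02 over all genes tested.

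**Figure D2:**
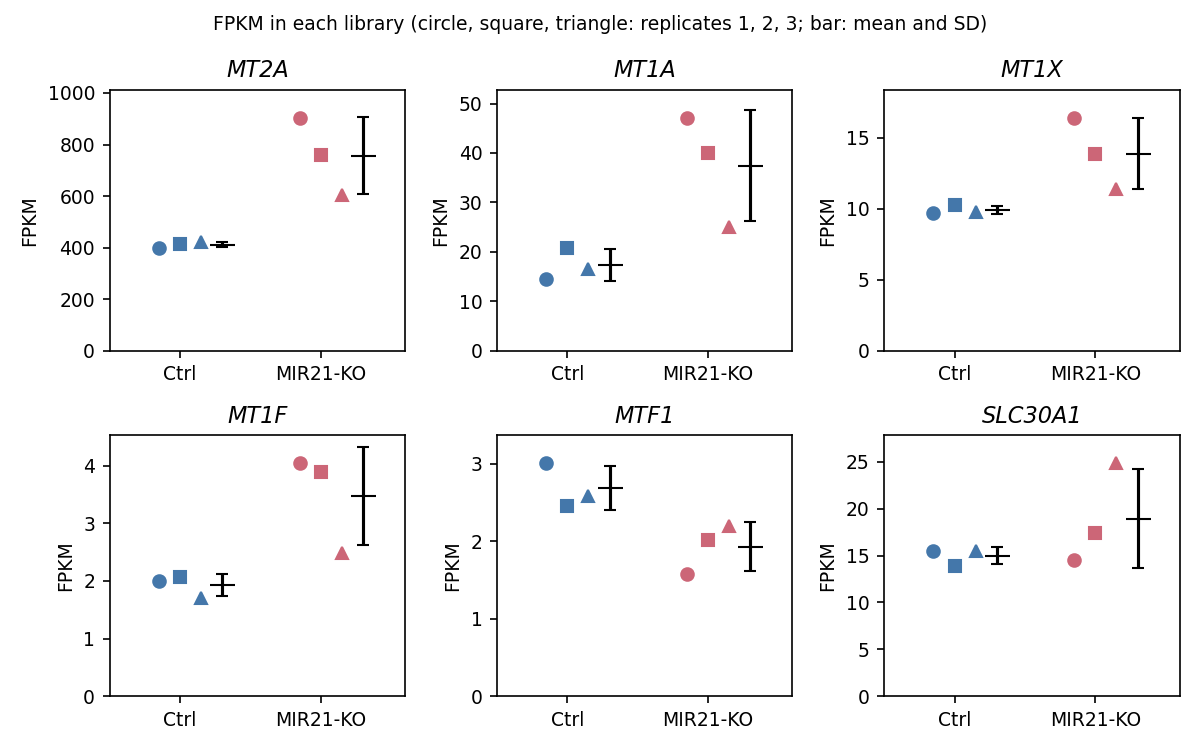
FPKM of 6 mRNAs (y axes, linear and starting at 0) in each library of the Ctrl and MIR21-KO groups, with the mean and SD over 3 libraries beside the points. MT2A, MT1A, MT1X and MT1F are above all Ctrl libraries in every MIR21-KO library, MTF1 is below, and SLC30A1 overlaps.

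The remaining metallothioneins of the group were close to silent. MT1G and MT1M had no read in any of the 6 libraries. A count of 0 allows up to 3 reads, which corresponds to 0.292 to 0.372 FPKM for MT1G and 0.233 to 0.296 FPKM for MT1M, depending on the library. These limits cover counting error only. MT1E had 1 read in Ctrl replicate 1, 2 reads in MIR21-KO replicate 1 and none in the other 4 libraries. No fold change is given for these 3 genes, and a difference was not detectable at this depth.

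A metallothionein outside the chosen group, MT1A, was more abundant than MT1X per deposited gene length. It had 14.5, 20.9 and 16.6 FPKM in Ctrl and 47.1, 40.02 and 25.1 FPKM in MIR21-KO libraries. The groups did not overlap. Its log2 fold change of 1.07 ± 0.25 (SE) had an FDR of 0.0176 by limma and was not called. Without MIR21-KO replicate 3 it passed (1.34, FDR = 0.00227, limma). MT1A passed in no other fit that leaves out 1 library (FDRs of 0.0296 to 0.0686, limma). Of the 14 further metallothionein genes and pseudogenes with a row, 3 were tested (MT1A and the pseudogenes MT1DP and MT1XP1). By limma 0 were called, where 16.0% of all genes tested were, and 1 had an unadjusted p under 0.05 (MT1A, 0.00371). MT1H, MT1L and MT4 were among the 6 of these 14 without a read in any library.

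All 20 metallothionein genes and pseudogenes in the table were then summed within each library. The sum was 429 to 456 FPKM in Ctrl and 647 to 981 FPKM in MIR21-KO libraries, which did not overlap. MT2A supplied 91.2% to 93.3% of it in Ctrl and 92.1% to 93.6% in MIR21-KO. In reads, the sum was 0.0571% ± 0.0014 (SD, n = 3) of all assigned reads in Ctrl, and 0.101% ± 0.016 (SD, n = 3) of those in MIR21-KO libraries.

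Ratios between metallothionein mRNAs were compared next. The ratio of MT2A to MT1X FPKM, which does not depend on how libraries are scaled, was 41.3, 40.2 and 43.0 in Ctrl and 55.1, 54.8 and 53.1 in MIR21-KO libraries. In MIR21-KO libraries these ratios were nearly the same, unlike the levels themselves. In Ctrl libraries both the ratios and the levels varied little. The groups did not overlap in the ratio. The difference was 0.39 on the log2 scale, with a two-sided exact permutation p of 0.1 (n = 3 each). This is the smallest p that 3 against 3 libraries allow. Among the 6 pairs of MT2A, MT1A, MT1X and MT1F, 3 had no overlap, all of them with MT1X. MT1A over MT1X differed by 0.61 and MT1X over MT1F by -0.36 (exact permutation p = 0.1 and adjusted p = 0.2 over the 6 pairs, for each of the 3). By contrast, the MT2A to MT1F ratio was 200.6, 199.9 and 247 in Ctrl and 223, 195 and 243 in MIR21-KO libraries, so that these groups overlapped (exact permutation p = 1). MT2A over MT1A and MT1A over MT1F overlapped as well, with an exact permutation p of 0.2 for each.

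**Figure D3:**
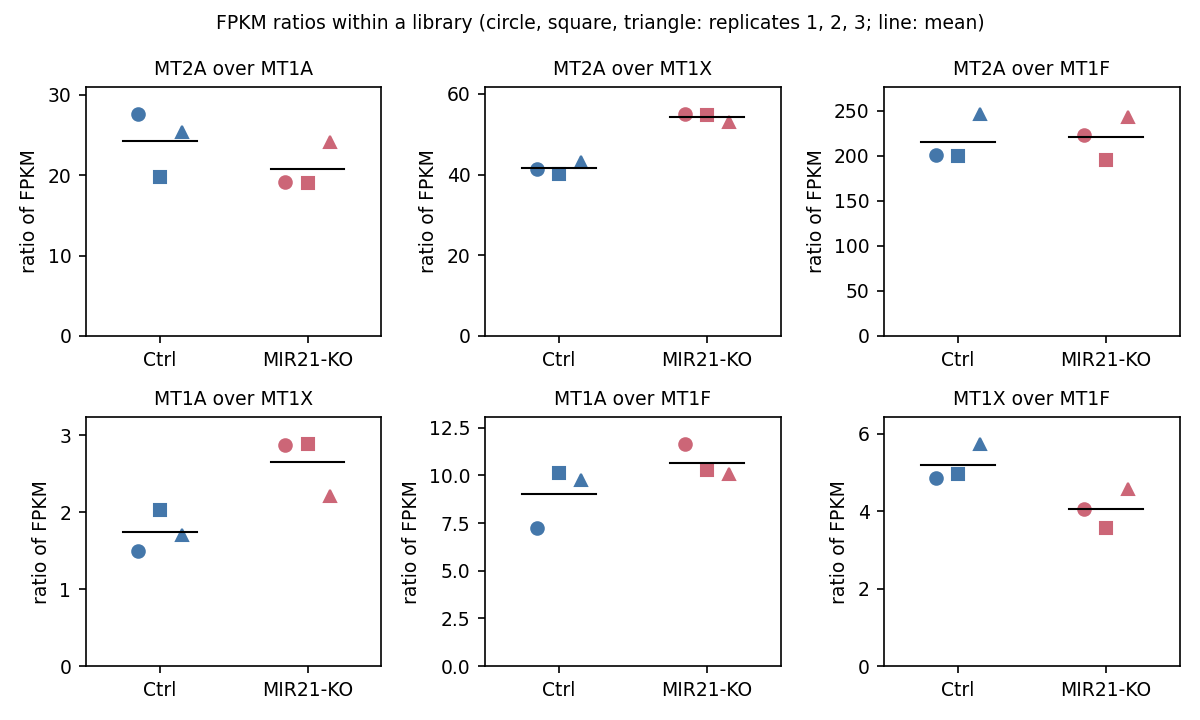
FPKM ratios of 6 metallothionein pairs within each library (y axes, linear and starting at 0), for 3 Ctrl and 3 MIR21-KO libraries, with lines at the group means. MT2A over MT1X is 40.2 to 43.0 in Ctrl and 53.1 to 55.1 in MIR21-KO, while MT2A over MT1F overlaps between the groups.

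Levels between these genes depend on the length used. The deposited lengths of MT2A, MT1X and MT1F are 1299, 1773 and 1889 bases, which include retained introns, while the first transcript that GENCODE names for each has 786, 450 and 690 bases, respectively. For MT1A both are 396 bases. Per kb of deposited length, the order in Ctrl was MT2A, MT1A, MT1X and MT1F. Per kb of that first transcript, it was MT2A (680.1 ± 16.9), MT1X (39.1 ± 1.24), MT1A (17.3 ± 3.27) and MT1F (5.26 ± 0.529), so that MT1X and MT1A changed places. MT2A stood first and MT1F last on both scales. Comparisons of 1 gene between libraries do not depend on this choice.

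Metallothionein transcripts resemble each other, so shared reads were considered. Among all 50-base windows of each gene's transcripts, 3.02% of MT2A, 18.3% of MT1X and 1.22% of MT1F windows also occurred in another gene. At 100 bases the share was 0% for MT2A and MT1F and 11.3% for MT1X, where it came from a noncoding transcript (AC026461.1) that overlaps MT1X on the same strand. That transcript was listed at 0 reads in all 6 libraries, as was the transcript that overlaps MTF1 on the other strand. How reads shared between genes were counted is not given in the sources used here, so MT1X in particular remains uncertain in its level.

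MTF1, which senses zinc and activates these genes, had lower values in MIR21-KO cells, though the difference did not pass the test. Its level was 3.01, 2.46 and 2.59 FPKM in Ctrl and 1.58, 2.02 and 2.19 FPKM in MIR21-KO libraries. The groups did not overlap, in the opposite direction to the metallothioneins. The log2 fold change was -0.46 ± 0.16 (SE), with a 95% confidence interval of -0.85 to -0.08 (FDR = 0.0710, limma). MTF1 was not called in any of the alternative fits, in which its FDR ranged from 0.0283 to 0.207 by limma.

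SLC30A1, the zinc exporter that MTF1 controls together with the metallothioneins, was measured at 15.5, 13.9 and 15.5 FPKM in Ctrl. The MIR21-KO libraries had 14.6, 17.4 and 24.8 FPKM. The first of these lay within the Ctrl values and the last well above them. The log2 fold change of 0.30 ± 0.19 (SE) did not pass the test (FDR = 0.261, limma), and its 95% confidence interval ran from -0.14 to 0.75. It was 0.09 when MIR21-KO replicate 3 was left out and 0.47 when replicate 1 was, so its size rested on these libraries.

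The MIR21-KO libraries differed from each other in a way that ran through the whole group. MT2A, MT1X, MT1F and MT1A were each highest in replicate 1 and lowest in replicate 3, whereas SLC30A1 and MTF1 were lowest in replicate 1 and highest in replicate 3. Relative to the Ctrl mean, MT2A stood 1.13, 0.89 and 0.56 higher on the log2 scale in replicates 1, 2 and 3. SLC30A1 stood at -0.04, 0.22 and 0.73. Across all tested genes, deviations of these libraries from their group mean also followed base composition: Spearman's rho with GC content was 0.386 in replicate 1, 0.210 in replicate 2 and -0.446 in replicate 3. With gene length it was -0.331, -0.028 and 0.267. GC content was taken from the longest annotated transcript of each gene. It was 53.7% to 58.2% for MT2A, MT1X and MT1F, 50.5% for MT1A, 46.7% for MTF1 and 38.0% for SLC30A1.

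When the trends of each library with GC content and gene length were removed, MT2A was called (log2 fold change 0.77, FDR = 0.000396, limma), as were MT1X (0.38, FDR = 0.00444) and MT1F (0.67, FDR = 0.00934). Outside the chosen group, MT1A was called as well (1.08, FDR = 0.00577, limma). MTF1 (-0.44, FDR = 0.0283) and SLC30A1 (0.46, FDR = 0.0158) were still not called by limma. In that fit 3957 of the 16006 genes tested were called, against 2568 without removal of the trends.

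**Figure D4:**
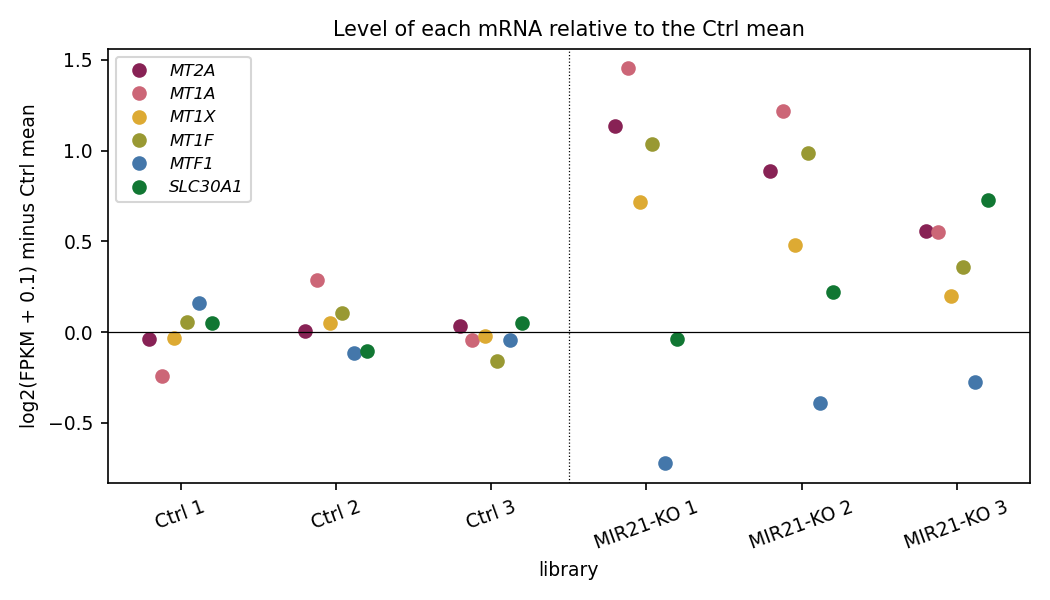
Level of MT2A, MT1A, MT1X, MT1F, MTF1 and SLC30A1 in each library relative to the Ctrl mean, in log2(FPKM + 0.1) on the y axis and by library on the x axis. In MIR21-KO libraries the metallothioneins are highest in replicate 1 and lowest in replicate 3, while SLC30A1 stands at -0.04 in replicate 1 and at 0.73 in replicate 3.

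Beyond SLC30A1, cells move zinc through SLC30 exporters, which lower cytosolic zinc, and SLC39 importers, which raise it. Of 24 such transporter genes 16 were tested, and 1 was called, where 16.0% of all genes tested were. SLC39A14 (ZIP14), an importer of zinc, iron and manganese, had 21.6, 19.6 and 19.7 FPKM in Ctrl and 11.1, 13.0 and 14.5 FPKM in MIR21-KO libraries, without overlap. Its log2 fold change was -0.66 ± 0.11 (SE, FDR = 0.00541, limma). This call was lost without Ctrl replicate 1 (FDR = 0.0274), 2 (FDR = 0.0217) or 3 (FDR = 0.0241) or MIR21-KO replicate 2 (FDR = 0.0268), by limma in each case. SLC39A13, a zinc transporter of secretory compartments, had a log2 fold change of 0.66 (FDR = 0.0130) and SLC39A10, an importer at the plasma membrane, one of 0.54 (FDR = 0.0309), both short of the threshold by limma. Among the fits that leave out 1 library, SLC39A13 passed only without MIR21-KO replicate 3 (FDR = 0.00244, limma). Among the SLC30 genes, SLC30A6 (-0.46, FDR = 0.0389) and SLC30A9 (-0.34, FDR = 0.0131) were not called by limma, and SLC30A6 passed only without MIR21-KO replicate 3 (FDR = 0.00516) among the fits that leave out 1 library. The median log2 fold change of the 16 genes was -0.09, with 5 above and 11 below 0. With the GC content and gene length trends removed, SLC39A10 (0.71, FDR = 0.000232) and SLC39A13 (0.55, FDR = 0.00198) were called by limma. SLC39A14 stayed called (FDR = 0.000971, limma), and SLC30A6 (FDR = 0.0135) and SLC30A9 (FDR = 0.203) were not called by limma. In that fit 3957 of the 16006 genes tested were called.

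**Figure D5:**
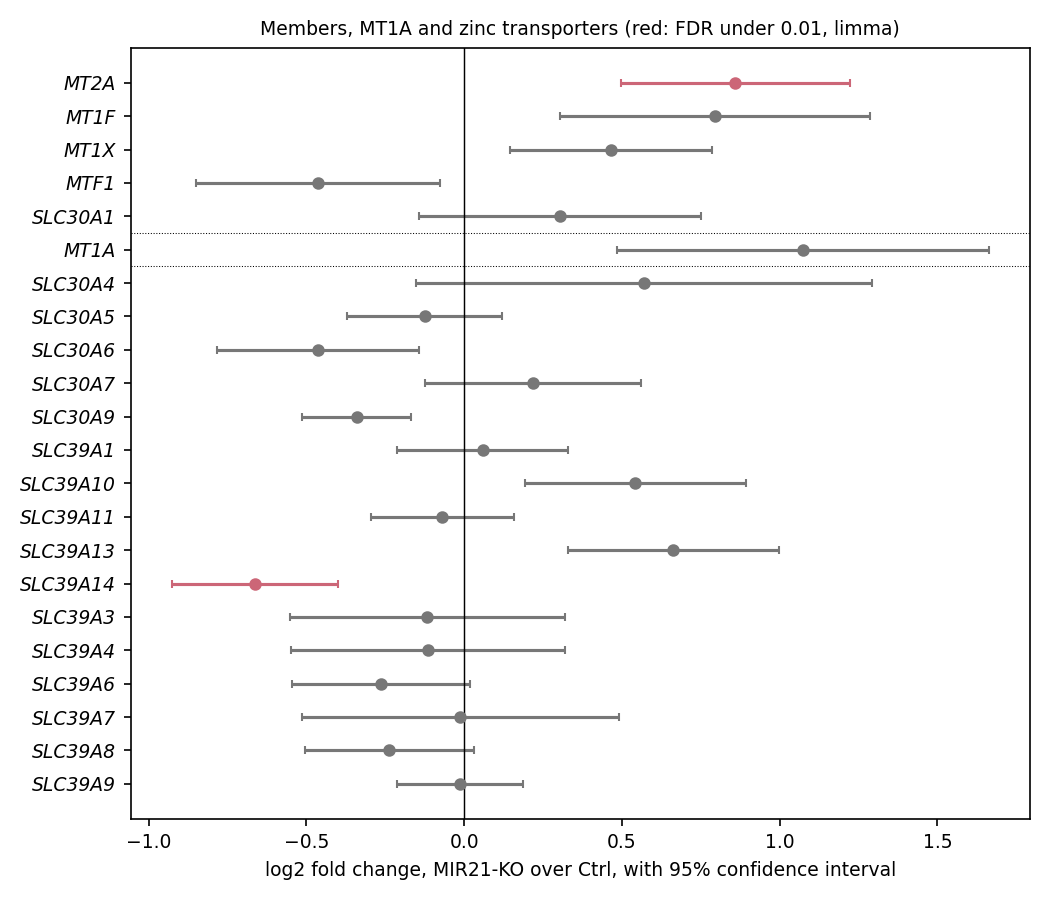
Log2 fold change (MIR21-KO over Ctrl, x axis) with its 95% confidence interval for the 5 tested members, MT1A and 16 zinc transporters (y axis). MT2A (0.86) and SLC39A14 (-0.66) are the ones called at an FDR under 0.01 by limma.

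Metallothioneins also bind copper, and 12 of 14 copper handling genes were tested. SCO1, which delivers copper to cytochrome c oxidase, was called lower (log2 fold change -0.57, FDR = 0.00262, limma). It was the only gene of the 12 called, where 16.0% of all genes tested were. The copper importer SLC31A1 (-0.40, FDR = 0.0244) and the copper chaperone ATOX1 (0.62, FDR = 0.0482) were not called by limma. When 1 library was left out, ATOX1 passed only without MIR21-KO replicate 3 (FDR = 0.00929, limma). The median over the 12 genes was -0.18.

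Since glucocorticoids can also induce metallothioneins, 11 glucocorticoid-responsive genes were examined, of which 9 were tested. The phosphatase DUSP1 (1.11, FDR = 0.000186), the leucine zipper protein TSC22D3 (0.70, FDR = 0.00333) and the secreted lipase inhibitor ANGPTL4 (2.16, FDR = 0.000125) were called higher by limma. Over all genes tested, 7.66% were called higher. FKBP5, a co-chaperone of steroid receptors, had a log2 fold change of -0.61 (FDR = 0.0133, limma), and the receptor gene NR3C1 one of 0.05 (FDR = 0.835, limma). When 1 library was left out, FKBP5 passed only without MIR21-KO replicate 3 (FDR = 0.00827, limma). DUSP1 and ANGPTL4 were called without any 1 of the libraries. The median over the 9 genes was 0.53, with 7 above and 2 below 0.

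The genes flanking the metallothionein cluster on chromosome 16 did not move in 1 direction. Of 9 such genes 6 were tested, 2 were called higher and 2 lower, where 16.0% of all genes tested were called in either direction. OGFOD1, a hydroxylase of a ribosomal protein, and NUP93, a nuclear pore protein, were lower (-0.57, FDR = 0.00145, and -0.62, FDR = 0.00247, limma). BBS2, a ciliary protein, and HERPUD1, a protein of the endoplasmic reticulum stress response, were higher (0.52, FDR = 0.00710, and 0.51, FDR = 0.00503, limma). TSC22D3, SCO1, OGFOD1, NUP93, BBS2 and HERPUD1 lost their calls when any 1 Ctrl library or MIR21-KO replicate 2 was left out, where their FDRs were 0.0107 to 0.0396 by limma. BBS2 also lost it without MIR21-KO replicate 1 (FDR = 0.0119) or 3 (FDR = 0.0106), and HERPUD1 without MIR21-KO replicate 1 (FDR = 0.0103), by limma.

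The 5 genes whose levels over the 6 libraries were most like the mean standardised profile of MT2A, MT1X and MT1F were named by a rule, among 7548 genes averaging 5 FPKM or more. They were GRHPR, a glyoxylate reductase, ILK, an integrin-linked kinase, AP2M1, a clathrin adaptor subunit, FSCN1, an actin-bundling protein, and CTSZ, a lysosomal cathepsin. Pearson's r lay between 0.997 and 0.9995 over the 6 libraries, which share the group difference and the composition trends above. As many as 524 genes exceeded 0.95. None of the 5 was called, with log2 fold changes of 0.29 to 0.56 and FDRs of 0.0170 to 0.0439 by limma, and all 5 had an unadjusted p under 0.05. Without MIR21-KO replicate 3 all 5 passed (FDRs of 0.00163 to 0.00542, limma). The rule itself picks genes that separate the groups and lie nearest to Ctrl in MIR21-KO replicate 3. These p-values and FDRs are therefore no separate evidence.

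The deleted gene encodes miR-21-5p, whose seed (bases 2 to 8, in capitals) would pair with sites in target mRNAs. The mature sequence, from RefSeq, is given to show the seed.

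miR-21-5p, chr17:59841273-59841294, plus strand: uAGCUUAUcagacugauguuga

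The longest annotated 3' UTRs of the 6 metallothioneins and of SLC30A1 held no match to 6 bases of the seed. That of MTF1 (5569 bases) held 2 such matches and no longer one. Over the tested genes with an annotated 3' UTR, 29.4% held at least 1 match of 6 bases and 15.1% at least 1 of 7 bases.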

How the data were processed

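PolyA RNA-seq of A549 cells (3 Ctrl, 3 MIR21-KO libraries) was analysed. Sample titles gave the groups and replicate numbers. Per the labels, oligo(dT) enrichment preceded strand-specific library construction and Illumina HiSeq sequencing. The submitters' processing notes name hg38, cutadapt 1.14, HISAT2 2.1.0, SAMtools 1.5, featureCounts 1.5.3 and edgeR 3.18.1. The annotation release and the handling of shared reads are not given in the sources used here.

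The authors deposited 1 table of FPKM per library with gene lengths. It also holds a log2 fold change, a p-value and an FDR from the authors' comparison, none of which was used. FPKM times length gave whole reads for 100% of values (tolerance 0.01). A number of reads behind a value sets only its counting error. No column was left unmatched to a sample. Whether replicates came from separate cultures is not stated, so p-values measure only the spread between these libraries, which may be technical.

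The test of genes averaging 0.5 FPKM or more used limma 3.58.1 in R 4.3.3 on log2(FPKM + 0.1) (eBayes with trend and robust fitting, no covariate), with the Benjamini-Hochberg method over all genes tested. The procedure was tested on simulated reads with the same extra spread for every gene and no trends with GC content or length. That test therefore gives no check of the calls under the trends seen in these libraries. Alternatives were other pseudocounts (1 and 0.01), filters and scalings, voom on recovered reads, removal of the gene length trend (lowess, span 0.3), a replicate block, an FDR of 0.05 and leaving out each library. Removal of both GC content and length trends, with and without the block, and levels per first GENCODE transcript were chosen after seeing the data. Ratios were compared by exact permutation tests (scipy 1.17.1). Sequence windows and 3' UTRs came from GENCODE 29, and promoters and miR-21-5p from RefSeq (GRCh38.p14). The members and gene lists were chosen with earlier results of these data known. Genes named were the members, genes of these lists, MIR21, VMP1 and the 5 genes most like the tested metallothionein members by Pearson's r. Figures were drawn with matplotlib 3.10.9.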

Additional observations from a re-analysis of the deposited data

How the results depend on the processing

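The direction of every tested member was the same in each alternative that gave it a value. Among the other genes named, NR3C1 changed sign, with log2 fold changes of -0.12 without MIR21-KO replicate 3, 0.19 without MIR21-KO replicate 1 and 0.20, the highest, with the GC and length trends removed. The number of members called was 1, and it was 0 without a filter on low values, 0 with limma without trend and robust fitting, 2 with the gene length trend removed, 3 with the GC and length trends removed and 3 at an FDR under 0.05. Leaving out one library gave 0 to 3. Beside the 0 without a filter, MT2A had an FDR of 0.0124, and beside the 0 without trend and robust fitting one of 0.0132, by limma. MT2A was called in 11 of 18 alternatives, with FDRs of 0.000396 to 0.0357. The number of all genes called was 2568, against 1810 without a filter, 1946 without trend and robust fitting, 1953 at 5 FPKM or more, 3496 with voom, 3957 with the GC and length trends removed, 5114 at an FDR under 0.05 and 784 to 3418 when one library was left out (784 in the absence of MIR21-KO replicate 2, and 889 to 933 in the absence of a Ctrl library). Genes of the other lists called numbered 9, against 6 without a filter, 6 without trend and robust fitting, 14 with voom, 14 with the GC and length trends removed, 19 at an FDR under 0.05 and 2 to 13 without one library. SLC39A14, BBS2 and HERPUD1 lost their calls without a filter (FDR = 0.0122, 0.0144 and 0.0108, limma) and without trend and robust fitting (0.0135, 0.0110 and 0.0126). NUP93 (0.0162) and SCO1 (0.0154) lost theirs with the length trend removed, SCO1 also with both trends removed (0.0157), and BBS2 with scaling by total reads (0.0135). With the replicate block, 651 genes, 0 members (MT2A FDR = 0.0270, limma) and 2 genes of the other lists were called. With the block and both trends removed, 1 member (MT2A) and 5 genes of the other lists were called, so that MT1X (FDR = 0.0205) and MT1F (FDR = 0.0178) lost the calls they had with the trends removed, by limma. Same-numbered libraries did not deviate together (correlations -0.171, -0.0177 and -0.0174), and were not treated as pairs. With 3 libraries per group the exact tests of ratios cannot go below 0.1. What causes these differences was not tested. The filter at 5 FPKM removes MT1F and MTF1, so it gives them no value.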
